A study of Mus musculus with 26 samples.

Results

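The genes described here are 10 mouse genes of plasma cells and of antibodies made after class switching, out of 55416 genes in the count tables. They are 5 heavy-chain constant genes (Igha, Ighg1, Ighg2b, Ighg2c and Ighg3), the light-chain constant gene Igkc, the joining chain gene Jchain, and the plasma cell genes Mzb1, Sdc1 and Prdm1. They were taken by symbol and each matched 1 Ensembl gene. Polyadenylated RNA was sequenced from C57BL/6 mice whose lungs carried metastases seeded through a vein with B16F10 cells, a melanoma line of that strain. In each of 3 kinds of material a group that received propranolol, which blocks β-adrenoceptors, was set against a group that received no treatment. Whole lung had 5 libraries per group, monocytes sorted by flow from lung had 4 per group, and CD4 T cells drawn from lung with magnetic beads had 4 per group. The labels give no dose, duration, age or sex of the animals, and every animal carried B16F10 cells, so no lung without tumour cells is among the groups. Nothing in the labels ties libraries to separate animals, and the p-values therefore reflect variation from library to library, which may be technical.

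A plasma cell is a B cell that has turned into a secretory cell for antibody. It keeps transcribing its rearranged heavy and light chain genes at a very high rate, and the transcription factor Blimp-1, encoded by Prdm1, represses the programme of the mature B cell. Class switching joins the rearranged variable segment to another constant gene of the heavy-chain locus, so that an IgM-bearing cell comes to make IgG, IgE or IgA, and the constant gene in the messenger RNA shows the class. In mucosal tissue such as lung, IgA is made as a dimer held by the J chain, which lets it be carried across epithelium.

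The constant genes lie in a row on chromosome 12 in the order Ighm, Ighd, Ighg3, Ighg1, Ighg2b, Ighg2c, Ighe and Igha, counted from the side of the variable segments in the reference annotation. In antibody messenger RNA they are transcribed from the promoter of whichever variable segment was rearranged, so windows are shown only for members outside the antibody loci. The counts per gene do not tell such messenger RNA from any other transcript of a constant gene. The windows of 250 bases before to 50 bases after the RefSeq start of Jchain, Sdc1 and Prdm1 (GRCm38.p6) are shown because Jchain and Prdm1 were higher with propranolol in whole lung and Sdc1 was not. No window is shown for Mzb1, which also lies outside the antibody loci and was higher with propranolol in whole lung. The capitals mark CAGGTG or its reverse complement CACCTG, the E-box bound by E proteins such as that of Tcf3; this motif was chosen after the sequences had been seen.
Jchain promoter, chr5:88527848-88528147, minus strand: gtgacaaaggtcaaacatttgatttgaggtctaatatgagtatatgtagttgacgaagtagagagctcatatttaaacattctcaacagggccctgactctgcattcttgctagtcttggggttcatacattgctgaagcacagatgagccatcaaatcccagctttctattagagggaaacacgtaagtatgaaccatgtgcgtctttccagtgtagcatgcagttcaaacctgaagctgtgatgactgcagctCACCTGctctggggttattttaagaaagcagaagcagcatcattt
Prdm1 promoter, chr10:44458699-44458998, minus strand: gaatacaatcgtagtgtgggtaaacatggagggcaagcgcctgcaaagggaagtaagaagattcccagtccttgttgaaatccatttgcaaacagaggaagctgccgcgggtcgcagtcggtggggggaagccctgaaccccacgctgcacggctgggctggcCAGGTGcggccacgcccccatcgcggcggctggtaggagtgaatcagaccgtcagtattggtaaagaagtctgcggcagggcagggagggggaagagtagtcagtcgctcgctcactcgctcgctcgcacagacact
Sdc1 promoter, chr12:8771146-8771445, plus strand: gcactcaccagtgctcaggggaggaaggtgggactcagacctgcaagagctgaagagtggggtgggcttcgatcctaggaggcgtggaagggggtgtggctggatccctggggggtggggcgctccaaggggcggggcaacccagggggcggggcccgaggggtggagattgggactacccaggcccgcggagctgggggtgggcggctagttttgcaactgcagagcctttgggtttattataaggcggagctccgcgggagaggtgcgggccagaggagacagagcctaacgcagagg

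The E-box letters begin 6 bases into the transcribed part of the Jchain window and at position -87 of the Prdm1 window, and the Sdc1 window holds none. On both strands, 20.2% of 32851 promoter windows of this length hold these letters. The octamer ATGCAAAT of antibody promoters is in 1.74% of the windows and the stress element TGACGTGG in 0.676%, and neither is in the 3 windows shown. A match is a run of letters and says nothing of binding in these libraries.

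The depth, as total gene counts, was between 29650148 and 43447855 in propranolol lungs and between 33232082 and 47618634 in untreated lungs. In the libraries labelled monocytes it ran from 36277687 to 46407803 with propranolol and from 36371431 to 48306925 untreated, and in those labelled CD4 T cells from 27742422 to 42484125 with propranolol and from 17625672 to 35600275 untreated. Values below are plain counts-per-million values (CPM), relative to all gene counts of a library. Some libraries stood close together, measured as the chi-square per degree of freedom of their counts, which ran from 9.19 to 191 between replicate lungs. In the monocyte groups, libraries 1 and 2 and libraries 3 and 4 were the closest pairs, at 3.71 and 3.52 with propranolol and 5.24 and 4.44 untreated. Among the propranolol CD4 T cell libraries, 3 and 4 were at 5.46 while 1 and 2 were at 139, and all 6 pairs of untreated CD4 T cell libraries stood as close, at 4.84 to 7.07. The small spread of those untreated libraries enters every CD4 T cell p-value. The labels do not say whether any of these were made from the same cells.

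The 3 kinds of material held these transcripts at very different levels. Constant genes of heavy and light chains together made up 0.108% ± 0.0281 of all counts in propranolol lungs and 0.0161% ± 0.00517 in untreated lungs (SD, n = 5 each). In the libraries labelled monocytes the shares were 0.0950% ± 0.0153 with propranolol and 0.0441% ± 0.0119 untreated, and in those labelled CD4 T cells 2.94% ± 0.332 with propranolol and 3.21% ± 0.135 untreated (SD, n = 4 each). The libraries labelled CD4 T cells thus held antibody transcripts at a high level with or without propranolol, beside Cd4, the co-receptor that names the cells, at 458 ± 55.5 CPM with propranolol and 644 ± 4.90 CPM untreated (SD, n = 4 each). Tyrp1, a pigment enzyme of melanoma cells, had no count in any of those 8 libraries. In bulk RNA, fewer cells of a type and less RNA per cell cannot be told apart.

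**Figure D1:**
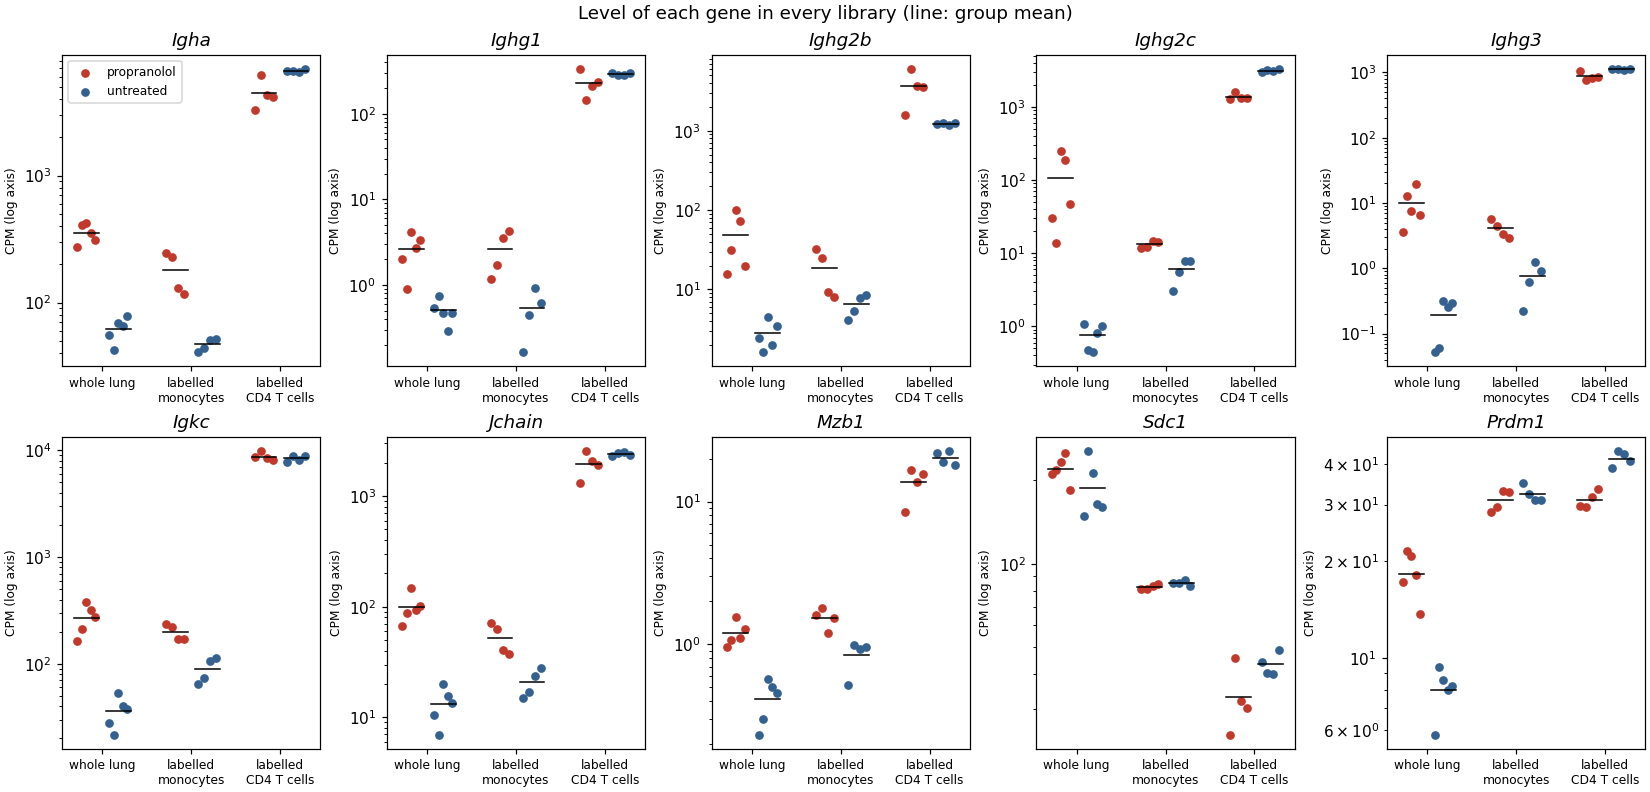
Level of each of the 10 genes in every library, in CPM on a log axis, with propranolol libraries in red to the left of untreated libraries in blue and a line at each group mean. The 7 antibody and J chain genes and Mzb1 stood highest in the libraries labelled CD4 T cells, whereas Sdc1 stood highest in whole lung.

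In whole lung, antibody transcripts of every switched class measured here were more abundant with propranolol, as were those of the kappa light chain, the J chain, Mzb1 and Prdm1, while Sdc1 was not called. By edgeR's quasi-likelihood test with Benjamini-Hochberg adjustment over 18639 genes, 9 of the 10 members were higher at an adjusted p below 0.05 and 0 were lower. Among these 9, Ighg3 and Mzb1 passed the filter on low counts through the propranolol libraries alone. The members were also chosen with earlier results of these data known. Of all genes tested 70.8% were called, 35.5% higher and 35.3% lower. The median log2 change was 2.53 over the members and 0.03 over all genes tested. In plain CPM, all 5 propranolol lungs lay above all 5 untreated lungs for the same 9 genes, a pattern that held for 33.7% of genes tested.

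Igha encodes the heavy chain of IgA. It had 276, 411, 425, 354 and 313 CPM in propranolol lungs, against 55.3, 42.2, 69.5, 65.0 and 78.1 CPM in untreated lungs. The groups lay far apart, and within each group the libraries were within a factor of 2 of one another. The log2 change was 2.34 ± 0.17 (SE, edgeR adjusted p = 2.7e-05), a 5.06-fold rise.

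The 4 IgG genes rose as well, and Ighg2c, Ighg2b and Ighg3 had log2 changes above that of Igha and Ighg1 one below it. Ighg2c, the heavy chain of IgG2c, which C57BL/6 mice make in type 1 responses, had 30.0, 13.9, 247, 189 and 46.8 CPM in propranolol lungs, against 1.07, 0.481, 0.444, 0.819 and 1.02 CPM in untreated lungs. Propranolol lungs 3 and 4 were the highest by a wide margin, and lung 2, the lowest of the treated, still stood above every untreated lung. The log2 change was 6.90 ± 0.89 (SE, edgeR adjusted p = 0.00014).

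Ighg2b, the heavy chain of IgG2b, had 15.8, 31.7, 102, 72.4 and 19.5 CPM in propranolol lungs, against 2.47, 1.62, 4.44, 2.02 and 3.43 CPM in untreated lungs. Lungs 3 and 4 were again the highest of the treated, and the groups did not overlap. Its log2 change was 3.93 ± 0.55 (SE, edgeR adjusted p = 0.000192).

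Ighg3 encodes the heavy chain of IgG3. It had 3.59, 12.7, 7.46, 19.6 and 6.53 CPM in propranolol lungs, against 0.052, 0.0602, 0.314, 0.252 and 0.296 CPM in untreated lungs, where it rested on 2 to 13 counts per library. Lung 4 was highest here, and lung 3, the top library for Ighg2c, was in the middle of the treated range. The log2 change of 5.45 ± 0.57 (SE, edgeR adjusted p = 7.37e-05) rests on these few untreated counts. Ighg3 and Mzb1 passed the filter on low counts in lung through the propranolol libraries alone.

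Ighg1 encodes the heavy chain of IgG1. It ran from 0.911 to 4.12 CPM with propranolol and from 0.294 to 0.752 CPM untreated, on 14 to 25 counts per untreated library, with a log2 change of 2.20 ± 0.39 (SE, edgeR adjusted p = 0.00062). Ighe, the heavy chain of IgE, had 2 to 25 counts in the propranolol lungs and at most 1 count in an untreated lung, and was below the filter.

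Igkc, the constant segment of the kappa light chain used by most mouse antibodies of any class, had 162, 211, 381, 321 and 273 CPM in propranolol lungs, against 28.0, 21.7, 53.6, 40.0 and 37.9 CPM in untreated lungs. Jchain, the joining chain of polymeric IgA and IgM, had 67.3, 86.8, 147, 93.1 and 102 CPM in propranolol lungs, against 10.5, 6.98, 19.9, 15.5 and 13.4 CPM in untreated lungs. Both genes had their highest treated value in lung 3 and their lowest in lung 1, and neither overlapped between groups. Their log2 changes were 2.72 ± 0.27 for Igkc and 2.72 ± 0.27 for Jchain (SE, edgeR adjusted p = 6.65e-05 and 6.56e-05).

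The remaining members are not made by plasma cells alone. Prdm1 had 17.2, 21.5, 20.8, 18.1 and 13.8 CPM in propranolol lungs, against 5.80, 9.39, 8.55, 8.0 and 8.18 CPM in untreated lungs, a log2 change of 1.01 ± 0.15 (SE, edgeR adjusted p = 0.000246). Mzb1, a chaperone of the endoplasmic reticulum in B and plasma cells, ran from 0.956 to 1.57 CPM with propranolol and from 0.234 to 0.575 CPM untreated, with a log2 change of 1.34 ± 0.26 (SE, edgeR adjusted p = 0.00108). Of the 50-base windows of Mzb1 transcripts in the reference annotation, 53.5% also occur in transcripts of the overlapping gene SPATA24, and the sources used here do not say if the authors counted by strand, so part of the Mzb1 count is uncertain. Sdc1 encodes syndecan-1, the CD138 of plasma cells and also a surface proteoglycan of epithelium. It had 211, 218, 232, 250 and 185 CPM in propranolol lungs, against 148, 253, 212, 163 and 160 CPM in untreated lungs. The groups overlapped, and the log2 change was 0.04 ± 0.15 (SE, edgeR adjusted p = 0.804).

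Other cell types moved in the same lungs. The summed CPM of 10 melanocyte genes ran from 1180 to 11339 in propranolol lungs and from 16942 to 25654 in untreated lungs, with none of them at 0. The summed CPM of 10 epithelial genes ran from 18654 to 29975 with propranolol and from 8403 to 17696 untreated, and that of 8 endothelial genes from 2984 to 4821 with propranolol and from 1479 to 2676 untreated. Tyrp1 stood at 1723, 860, 451, 231 and 2034 CPM in propranolol lungs 1 to 5. Lungs 3 and 4, the highest for Ighg2c and Ighg2b, were the lowest for Tyrp1. The order did not hold in the others, as lung 2, the lowest for Ighg2c at 13.9 CPM, had less Tyrp1 than lungs 1 and 5. Lung 5, the highest for Tyrp1, lay above lungs 1 and 2 for Ighg2c. The part of these differences in the antibody changes was not tested beyond another scaling and a covariate. With lung libraries scaled on markers of resident lung cells, Prdm1 was at 0.25 log2 (edgeR adjusted p = 0.207) and Sdc1 at -0.73 (adjusted p = 0.00639), the 7 antibody and J chain genes and Mzb1 were still called higher, and calls over all genes split into 1850 higher and 10796 lower, against 6614 and 6575 with the main scaling and 8268 and 4770 with library totals alone. With the melanocyte level as a covariate, Mzb1 at 1.14 log2 (edgeR adjusted p = 0.0895) and Prdm1 at 0.72 (adjusted p = 0.0515) were no longer called.

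**Figure D2:**
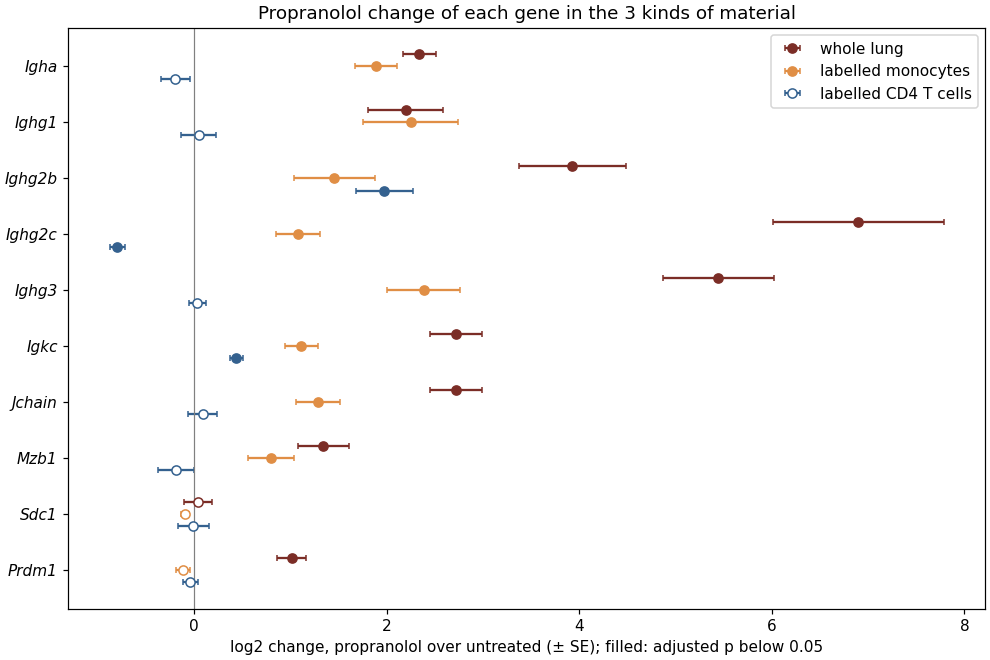
Log2 change of each gene, propranolol over untreated, with its SE, in whole lung (n = 5 per group) and in the libraries labelled monocytes and CD4 T cells (n = 4 per group), with filled points at an edgeR adjusted p below 0.05. Changes in lung reached 6.90 for Ighg2c, whereas in the libraries labelled CD4 T cells 7 of the 10 points are open and lie near 0.

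In the libraries labelled monocytes the antibody and J chain genes and Mzb1 were also higher with propranolol, while Sdc1 and Prdm1 were not called. Of the 10 members 8 were called higher and 0 lower (edgeR, 18236 genes tested), against 30.5% of all genes called, 14.3% higher and 16.1% lower. Among these 8, Ighg1 and Ighg3 passed the filter on low counts through the propranolol libraries alone. With library totals alone, calls over all genes split into 3644 higher and 2424 lower, against 2614 and 2939 with the main scaling. The median log2 change was 1.20 over the members and 0.02 over all genes tested. In plain CPM the groups did not overlap for 7 members, all higher with propranolol, a pattern shown by 19.8% of genes tested. Antibody transcripts in these libraries came beside transcripts of B cells, T cells, endothelium, epithelium and melanocytes, so they cannot be assigned to monocytes.

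Igha had 244, 227, 130 and 117 CPM in propranolol monocyte libraries, against 40.7, 43.6, 50.8 and 51.9 CPM in untreated monocyte libraries. Libraries 1 and 2 were high and 3 and 4 lower in the treated group, and the reverse order held among the untreated. The replicate numbers do not pair the libraries, so each order describes its own group. Cd4 had the same orders, at 141, 123, 41.6 and 32.1 CPM with propranolol and 20.7, 35.7, 62.7 and 75.1 CPM untreated. The part of T cells in these orders was not tested. The log2 change was 1.89 ± 0.22 (SE, edgeR adjusted p = 8.04e-05).

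Ighg3 had 5.79, 4.47, 3.32 and 2.91 CPM in propranolol libraries, against 0.220, 0.610, 1.27 and 0.911 CPM in untreated ones. The groups did not overlap, on 8 to 52 counts per untreated library. The log2 change was 2.38 ± 0.38 (SE, edgeR adjusted p = 0.000806). Ighg1 had 1.19, 1.69, 3.51 and 4.25 CPM in propranolol libraries, against 0.165, 0.446, 0.928 and 0.621 CPM in untreated ones, a log2 change of 2.25 ± 0.49 (SE, edgeR adjusted p = 0.00556). Unlike Igha and Ighg3, Ighg1 was higher in treated libraries 3 and 4 than in 1 and 2. Ighg1 and Ighg3 passed the low-count filter here through the propranolol libraries alone.

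Ighg2c stood at 11.9, 12.3, 14.5 and 14.3 CPM in propranolol libraries, against 3.05, 5.56, 7.84 and 7.87 CPM in untreated ones, and its log2 change was 1.08 ± 0.23 (SE, edgeR adjusted p = 0.00442). The treated libraries were nearly level, and the spread lay among the untreated. Ighg2b stood at 32.4, 24.8, 9.20 and 8.01 CPM in propranolol libraries, against 4.12, 5.42, 7.89 and 8.59 CPM in untreated ones. Treated library 4 lay below untreated library 4, so the groups overlapped, and the log2 change of 1.45 ± 0.42 had an edgeR adjusted p of 0.0232. That call was lost without propranolol library 1 or 2 or untreated library 1 or 2, with adjusted p from 0.0595 to 0.0662.

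Igkc had 237, 223, 172 and 170 CPM in propranolol libraries, against 64.4, 73.6, 107 and 114 CPM in untreated ones, a log2 change of 1.11 ± 0.17 (SE, edgeR adjusted p = 0.00057). Jchain had 70.6, 62.4, 40.3 and 37.0 CPM in propranolol libraries, against 14.8, 16.9, 23.5 and 28.0 CPM in untreated ones, a log2 change of 1.29 ± 0.23 (SE, edgeR adjusted p = 0.00165). Both repeated the pattern of Igha, with treated libraries 1 and 2 above 3 and 4 and untreated libraries 1 and 2 below 3 and 4. Mzb1 ran from 1.21 to 1.79 CPM with propranolol and from 0.522 to 0.986 CPM untreated, a log2 change of 0.80 ± 0.24 (SE, edgeR adjusted p = 0.0262). Its call was lost without propranolol library 1, 2 or 4 or untreated library 1, with adjusted p from 0.0515 to 0.0758.

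The 2 members that were not called in these libraries were Sdc1 and Prdm1. Sdc1 ran from 81.2 to 84.7 CPM with propranolol and from 82.9 to 87.4 CPM untreated, and Prdm1 from 28.5 to 33.1 CPM with propranolol and from 31.1 to 34.9 CPM untreated. Their log2 changes were -0.09 ± 0.04 for Sdc1 and -0.11 ± 0.07 for Prdm1 (SE, edgeR adjusted p = 0.111 and 0.283).

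Markers of lymphocytes and of other cells also differed between these libraries. The summed CPM of 17 B cell genes ran from 1138 to 1292 with propranolol and from 488 to 809 untreated, and that of 10 T cell genes from 191 to 714 with propranolol and from 86.7 to 367 untreated, with no gene of either list at 0. The melanocyte list ran from 5810 to 8482 with propranolol and from 4585 to 5519 untreated. The lists of endothelium and epithelium were lower with propranolol. The 8 endothelial genes ran from 4872.5 to 4891.3 with propranolol and from 6194.5 to 6383.5 untreated. The 10 epithelial genes ran from 5918 to 6326 with propranolol and from 6353 to 8143 untreated. The part of these cells in the antibody changes was not tested. When libraries 1 and 2 and libraries 3 and 4 of each group were summed, leaving 2 against 2, 3 members were called higher, namely Igha, Ighg3 and Igkc. Summing left the log2 changes near their values, with Jchain at 1.26 (edgeR adjusted p = 0.0618) and Ighg1 at 2.26 (adjusted p = 0.0864).

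The libraries labelled CD4 T cells showed another pattern: Ighg2b rose, Ighg2c fell, Igkc rose slightly with TMM scaling but not with library totals alone or T cell scaling, and the other 7 members were not called. By edgeR over 16550 genes, 2 members were called higher and 1 lower, against 60% of all genes called, 30.1% higher and 29.9% lower. The median log2 change was 0.01 over the members and -0.04 over all genes tested. In plain CPM, 5 members did not overlap with propranolol lower and 1 with propranolol higher, patterns shown by 46.3% and 15.9% of genes tested.

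Ighg2b had 1553, 5970, 3685 and 3526 CPM in propranolol CD4 T cell libraries, against 1227, 1251, 1190 and 1243 CPM in untreated ones. The untreated libraries were almost level, whereas treated library 2 was several times treated library 1 and libraries 3 and 4 lay between. The log2 change was 1.97 ± 0.30 (SE, edgeR adjusted p = 0.000135). With propranolol libraries 3 and 4 left out it was 2.0 (edgeR adjusted p = 0.003).

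Ighg2c had 1287, 1601, 1329 and 1331 CPM in propranolol libraries, against 3016, 3207, 3089 and 3299 CPM in untreated ones. All treated libraries were below all untreated ones, and treated library 2 was the highest of its group for Ighg2c as for Ighg2b. The log2 change was -0.80 ± 0.08 (SE, edgeR adjusted p = 3.24e-06). Of the 50-base windows of Ighg2c transcripts 5.49% also occur in Ighg2b, and of those of Ighg2b 4.15% occur in other IgG genes, so a small part of the reads of these genes cannot be told apart.

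Igkc had 8582, 9742, 8518 and 8036 CPM in propranolol libraries, against 7849, 8820, 8112 and 8870 CPM in untreated ones. The plain values overlapped, and the log2 change of 0.44 ± 0.07 (SE, edgeR adjusted p = 0.000251) rests on the scaling, since it was 0.05 with library totals alone (adjusted p = 0.537) and -0.29 with libraries scaled on T cell genes (adjusted p = 0.0072).

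Igha had 3289, 6153, 4285 and 4180 CPM in propranolol libraries, against 6646, 6713, 6569 and 6896 CPM in untreated ones. Every treated library was below every untreated one, with treated library 2 close to them, but the log2 change was -0.20 ± 0.15 under the main scaling (SE, edgeR adjusted p = 0.275). Without propranolol library 2 Igha was at -0.38 (edgeR adjusted p = 0.000248). Jchain had 1321, 2526, 2057 and 1891 CPM in propranolol libraries, against 2299, 2455, 2489 and 2340 CPM in untreated ones, and treated library 2 was above them all. Its log2 change was 0.09 ± 0.15 (SE, edgeR adjusted p = 0.631), and without propranolol library 1 it was 0.23 (adjusted p = 0.0215).

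Among the others, Ighg1 ran from 145 to 332 CPM with propranolol and from 284 to 302 CPM untreated, and Ighg3 from 760 to 1056 CPM with propranolol and from 1096 to 1127 CPM untreated. Treated library 1 was the highest of its group for both of these genes and the lowest for Igha, Ighg2b, Jchain, Mzb1 and Sdc1, and treated library 2 was the lowest for Ighg1 and Ighg3. Mzb1 ran from 8.52 to 16.7 CPM with propranolol and from 18 to 22.4 CPM untreated, Sdc1 from 24.3 to 45.8 CPM with propranolol and from 40.2 to 48.9 CPM untreated, and Prdm1 from 29.4 to 33.4 CPM with propranolol and from 38.9 to 43.9 CPM untreated. The edgeR adjusted p of these 5 genes lay between 0.395 and 0.972 (Mzb1 and Sdc1).

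The scaling decides much of the direction in these libraries. The median log2 change over all genes was -0.04 with the main TMM scaling, -0.43 with library totals alone and -0.77 with libraries scaled on 10 T cell genes, and calls over all genes split into 4982 higher and 4947 lower, 2886 and 8064, and 1649 and 10644 under these scalings. With library totals alone 1 member was called higher and 6 lower, and with T cell scaling 1 higher and 9 lower. Ighg2b was the member called higher under all 3, at 1.97, 1.58 and 1.26 log2, and Ighg2c was called lower under all 3, at -0.80, -1.19 and -1.53 log2. Ighg1, Ighg3 and Jchain were above 0 with TMM and below 0 with the other 2 scalings.

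**Figure D3:**
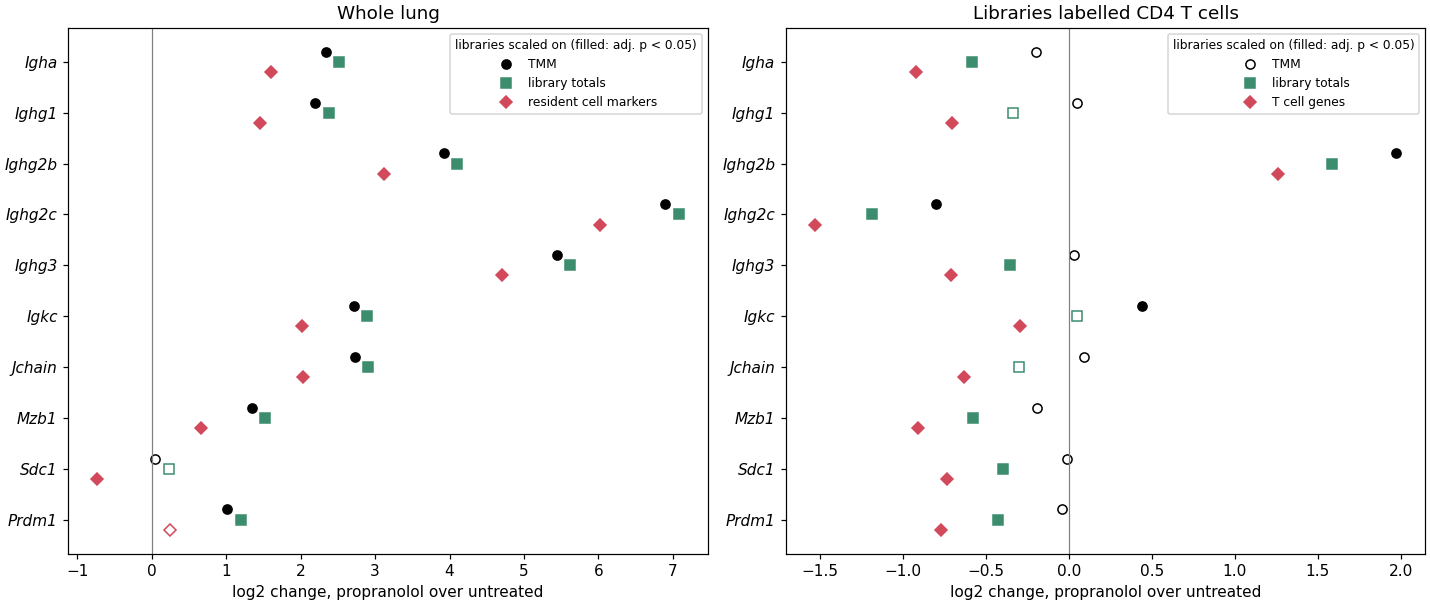
Log2 change of each gene, propranolol over untreated, under 3 scalings of the libraries, in whole lung (left) and in the libraries labelled CD4 T cells (right), with filled symbols at an edgeR adjusted p below 0.05. In lung the 7 antibody and J chain genes stay to the right of 0 under each scaling, whereas in the libraries labelled CD4 T cells only Ighg2b does.

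Marker lists of cell types in the libraries labelled CD4 T cells differed in level and in how they moved with treatment. Of 10 epithelial genes 3 had no count in any of the libraries of either group, and of 10 melanocyte genes 6 had none. The summed CPM of 10 T cell genes ran from 5053 to 5583 with propranolol and from 3599 to 3656 untreated, and that of 10 monocyte and macrophage genes from 337 to 353 with propranolol and from 185 to 215 untreated. The summed CPM of 17 B cell genes, most of it from Ighm, was high and overlapped, from 10084 to 11372 with propranolol and from 10114 to 11598 untreated. That sum hides single genes. With the main scaling 16 of the 17 were called higher and 0 lower, against 30.1% and 29.9% of all genes tested. With T cell scaling 13 were called higher and 2 lower. The part of these cells in the antibody changes was not tested.

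The propranolol change, as a signed log2 value, was compared between kinds of material as an interaction, in 1 fit for each pair of materials. The CD4 T cell counts came in a table of their own, so differences between the tables cannot be told apart from the kind of material. The log2 change was lower in the libraries labelled monocytes than in lung for 6 of the 10 members, and lower in those labelled CD4 T cells than in lung for 9. It was lower in those labelled CD4 T cells than in monocytes for 7, and higher for 0 in each. A lower value can be a weaker rise or a fall, and Ighg2c rose in lung and fell in the libraries labelled CD4 T cells. Of all genes tested, 57.4%, 56.2% and 47.7% were called in these 3 differences in either direction, and 32.3%, 32.2% and 24% in the direction of the members. Ighg2c had the largest difference, at -5.96 ± 0.96 log2 between monocytes and lung and -7.90 ± 0.93 between CD4 T cells and lung (SE, edgeR adjusted p = 8.21e-05 and 9.44e-07). Igha did not differ between monocytes and lung at this threshold, at -0.57 ± 0.29 log2 (SE, edgeR adjusted p = 0.0984). Sdc1 was called in none of the 3 differences, with adjusted p from 0.267 to 0.696. With lung libraries scaled on resident markers, Igha, Ighg1 and Mzb1 turned to a higher change in monocytes than in lung without being called. Sdc1 was then called higher in monocytes and in CD4 T cells than in lung. Under that scaling 4 calls of a lower change than in lung were lost, those of Jchain and Prdm1 in monocytes and of Ighg2b and Prdm1 in CD4 T cells.

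The mix of heavy-chain classes within a library does not depend on scaling. It is given as a percent of the counts of all 8 constant genes, and since their longest transcripts run from 1214 to 2566 bases the percents compare libraries and not genes. Igha made up 49.7%, 61.7%, 40.4%, 40.7% and 38.4% in propranolol lungs, against 58.3%, 55%, 39.5%, 53.6% and 58.8% in untreated lungs. The groups overlapped, with means of 46.2% ± 9.72 with propranolol and 53.0% ± 7.89 untreated (SD, n = 5 each), and the exact two-sided permutation test gave p = 0.254, or 0.286 adjusted over the 9 ratio tests. Ighg2c made up from 2.09% to 23.4% in propranolol lungs and from 0.253% to 1.12% in untreated lungs. With the IgG and IgA genes alone as the whole, the Igha percent was 21.2 points lower with propranolol (exact permutation test, adjusted p = 0.0238).

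Within the monocyte libraries the Igha percent was 29.1, 28.4, 20.3 and 19.3 with propranolol, against 17.2, 15.1, 13.1 and 11.9 untreated. The groups did not overlap, and the difference of the means was 9.93 points (exact permutation test, p = 0.0286, adjusted p = 0.0367, n = 4 each), where 0.0286 is the smallest p that 4 against 4 allow. Ighm made up 62.3% ± 5.22 of the counts with propranolol and 76.8% ± 2.32 untreated (SD, n = 4 each). With the IgG and IgA genes alone as the whole the difference was 4.15 points (exact permutation test, adjusted p = 0.225).

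Within the CD4 T cell libraries the Igha percent was 18.2, 25.5, 22 and 21.4 with propranolol, against 30.3, 28.7, 28.9 and 28.9 untreated, a difference of -7.41 points (exact permutation test, adjusted p = 0.0367, n = 4 each). Ighg2b took 8.62%, 24.8%, 18.9% and 18.1% with propranolol, against 5.60%, 5.34%, 5.24% and 5.21% untreated, and Ighg2c took 6.86% ± 0.205 with propranolol and 13.7% ± 0.0963 untreated (SD, n = 4 each). The untreated libraries thus had an almost fixed mix of classes, and the treated libraries differed from one another mainly in Ighg2b, Ighm and Igha. The ratio of Ighg2b to Ighg2c counts was 1.21 to 3.73 with propranolol and 0.377 to 0.407 untreated in these libraries, whereas in lung it was 0.382 to 2.28 with propranolol and 2.32 to 10 untreated; neither ratio was tested.

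**Figure D4:**
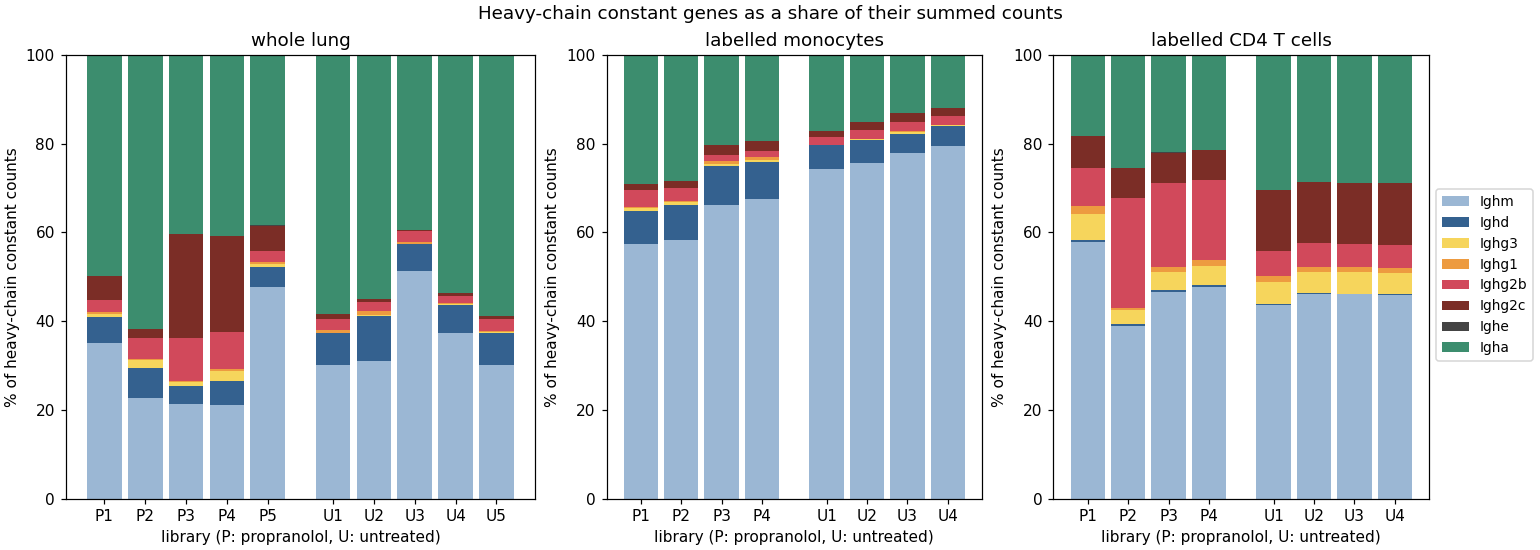
Percent of heavy-chain constant counts taken by each of the 8 constant genes in every library, with propranolol libraries (P) left of untreated libraries (U). Ighg2c widens in propranolol lungs 3 and 4, Igha widens in the propranolol monocyte libraries, and Ighg2b widens and Ighg2c narrows in the propranolol CD4 T cell libraries.

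The kappa share of light chains and the ratio of J chain to B cell transcripts were the other ratios measured within a library. Igkc made up 93.1% ± 1.69 of light-chain constant counts in propranolol lungs and 89.5% ± 0.874 in untreated lungs (SD, n = 5 each; exact permutation test, p = 0.00794, adjusted p = 0.0357). In the CD4 T cell libraries it made up 95.2% ± 0.324 with propranolol and 91.9% ± 0.562 untreated (SD, n = 4 each; exact permutation test, adjusted p = 0.0367), and the lambda genes Iglc1 and Iglc2 were lower there in plain CPM in all 4 treated libraries. In the monocyte libraries the share was 87.5% ± 1.38 with propranolol and 86.5% ± 0.630 untreated (SD, n = 4 each), which overlapped (exact permutation test, p = 0.286).

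The log2 ratio of Jchain counts to those of Ms4a1, the CD20 of mature B cells that plasma cells lose, was higher with propranolol in lung and in monocyte libraries and lower in CD4 T cell libraries. It was 2.24 ± 0.33 in propranolol lungs and 1.22 ± 0.16 in untreated lungs (SD, n = 5 each; exact permutation test, adjusted p = 0.0357). In the monocyte libraries it was -0.01 ± 0.41 with propranolol and -0.56 ± 0.11 untreated, and in the CD4 T cell libraries 5.12 ± 0.08 with propranolol and 6.49 ± 0.23 untreated (SD, n = 4 each; exact permutation test, adjusted p = 0.0367 for both). The groups did not overlap in any of the 3 materials, but in monocyte libraries the lowest treated ratio was -0.417 and the highest untreated -0.419, with treated libraries 1 and 2 at 0.422 and 0.265. Jchain itself was not called in the CD4 T cell libraries, while Ms4a1 was higher there by 1.43 ± 0.17 log2 (SE, edgeR adjusted p = 2.36e-05). With Cd79b in place of Ms4a1 the difference in the monocyte libraries was 0.14 and was not called (exact permutation test, adjusted p = 0.486).

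**Figure D5:**
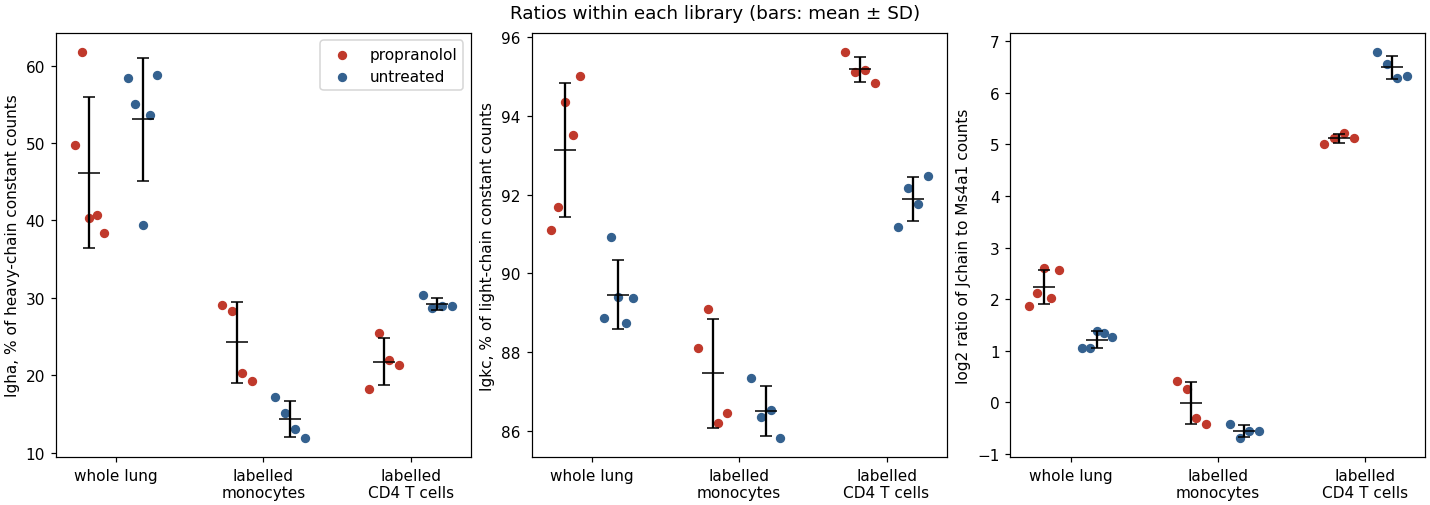
Igha percent of heavy-chain constant counts, Igkc percent of light-chain constant counts, and log2 ratio of Jchain to Ms4a1 counts in each library, with propranolol in red left of untreated in blue and bars at the mean ± SD (n = 5 per group in lung, 4 in the others). The J chain ratio separates the groups in all 3 materials, in monocyte libraries only just (-0.417 against -0.419), upward with propranolol in lung and monocyte libraries and downward in CD4 T cell libraries.

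The lists below stand beside all genes tested, of which 35.5% were called higher and 35.3% lower in lung. In monocyte libraries these shares were 14.3% and 16.1%, and in CD4 T cell libraries 30.1% and 29.9%. Under other scalings the calls over all genes shifted as given above. The first genes around the members are those of the B cells that precede plasma cells. All 17 mature B cell genes listed rose in lung and in the monocyte libraries, and 16 of 17 rose in the CD4 T cell libraries (13 with T cell scaling, with 2 lower), with median log2 changes of 1.87, 0.91 and 1.81. With the monocyte libraries summed in pairs 13 of 17 were called higher there, and Ighm at 0.71 (edgeR adjusted p = 0.112) and Ms4a1 at 0.66 (adjusted p = 0.113) were not. Ighd, the heavy chain of IgD on naive B cells, was at 41.0 ± 6.02 CPM in propranolol lungs and 8.44 ± 1.63 CPM in untreated lungs (SD, n = 5 each), and its log2 changes were 2.10 ± 0.14 in lung, 1.81 ± 0.11 in monocyte libraries and 2.15 ± 0.08 in CD4 T cell libraries (SE, edgeR adjusted p = 2.7e-05, 1.49e-06 and 1.24e-09). None of the 3 differences between these changes was called, with edgeR adjusted p from 0.0687 to 0.628. Ighm, the heavy chain of IgM, changed by 2.15 ± 0.36, 0.73 ± 0.16 and 0.26 ± 0.06 log2 (SE, edgeR adjusted p = 0.000423, 0.00612 and 0.00439), and in the CD4 T cell libraries it was at -0.13 with library totals alone and at -0.48 with T cell scaling. Ighe fell in the CD4 T cell libraries, at 1.69, 1.01, 1.28 and 0.661 CPM with propranolol against 6.52, 5.06, 5.98 and 5.19 CPM untreated, a log2 change of -1.89 ± 0.27 (SE, edgeR adjusted p = 0.000102). In the monocyte libraries Ighe had at most 3 counts with propranolol and 0 in all 4 untreated libraries.

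Of 20 other plasma cell genes, 12 of 19 tested rose and 6 fell in lung (median 0.52 log2), 9 rose and 4 fell of 19 in monocyte libraries (0.21; 3 and 2 with libraries summed), and 8 rose and 4 fell of 20 in CD4 T cell libraries (0.09; 8 and 1 without propranolol libraries 3 and 4). The counts turned with the scaling, to 5 higher and 9 lower in lung on resident markers and to 5 higher and 12 lower in CD4 T cell libraries on T cell genes. Apart from Xbp1, the genes of this list named here are ones that rose. Pou2af1, a coactivator of antibody gene transcription, rose in all 3, by 1.88 ± 0.19, 0.92 ± 0.09 and 1.06 ± 0.08 log2 (SE, edgeR adjusted p = 6.65e-05, 2.03e-05 and 3.26e-07). Its change was 1.16 in lung with resident scaling and 0.33 in CD4 T cell libraries with T cell scaling (edgeR adjusted p = 0.000626 and 0.00632). Irf4, a transcription factor of plasma cells and of activated T cells, was at 938 ± 70.1 CPM with propranolol and 111 ± 4.81 CPM untreated in the CD4 T cell libraries (SD, n = 4 each), and Ell2, an elongation factor used for secreted antibody, at 272 ± 10.02 CPM with propranolol and 66.8 ± 4.11 CPM untreated. In lung, Slamf7 and Tnfrsf13b, receptors of plasma and B cells, rose by 1.37 ± 0.16 and 1.40 ± 0.13 log2 (SE, edgeR adjusted p = 9.7e-05 and 5.45e-05). With resident scaling they rose by 0.64 and 0.67 (edgeR adjusted p = 0.00157 and 0.0011). Xbp1, which drives the secretory apparatus, was at 0.10 ± 0.09 log2 in lung (SE, edgeR adjusted p = 0.332) and at -0.65 with resident scaling (adjusted p = 0.00418). It fell by 0.33 in monocyte libraries (edgeR adjusted p = 8.96e-05). In CD4 T cell libraries Xbp1 rose by 1.0 (edgeR adjusted p = 2.6e-06), or by 0.27 with T cell scaling (adjusted p = 0.0463).

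The genes of the secretory pathway and its stress response, on which antibody secretion relies in plasma cells, went the other way from the antibody genes in lung. Of 22 listed, 1 rose and 18 fell in lung (median -0.65 log2), 0 rose and 17 fell in monocyte libraries (-0.40; 9 fell with libraries summed), and 15 rose and 3 fell in CD4 T cell libraries (0.28; 12 and 1 without propranolol libraries 3 and 4). With library totals alone 8 of them were called in each direction in CD4 T cell libraries, and 5 higher and 14 lower with T cell scaling. Hspa5, the chaperone BiP that binds free heavy chains, was at 507 ± 70.1 CPM in propranolol lungs and 849 ± 43.5 CPM in untreated lungs (SD, n = 5 each), a log2 change of -0.93 ± 0.10 (SE, edgeR adjusted p = 7.96e-05). It was at 1284 ± 70.2 CPM with propranolol and 606 ± 15.3 CPM untreated in CD4 T cell libraries (SD, n = 4 each; log2 change 1.47 ± 0.06, SE, edgeR adjusted p = 1.73e-09). Manf, secreted under stress of the endoplasmic reticulum, fell by 0.92 log2 in lung and by 0.72 in monocyte libraries (edgeR adjusted p = 7.32e-05 and 2.05e-06), and Atf4, a stress transcription factor, rose by 2.24 in CD4 T cell libraries (adjusted p = 7.88e-11). These genes are used by all secreting cells, melanoma and epithelial cells included.

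Germinal centre and switching genes were split, as were all genes tested in lung (35.5% higher and 35.3% lower) and in CD4 T cell libraries (30.1% and 29.9%). Of 16 listed, 6 rose and 6 fell of 14 tested in lung, 5 rose and 2 fell of 14 in monocyte libraries (1 and 0 with libraries summed), and 4 rose and 5 fell of 15 in CD4 T cell libraries. With resident scaling 4 rose and 8 fell in lung, and with T cell scaling 2 rose and 9 fell in CD4 T cell libraries. Irf8 and Bach2, transcription factors of B cells, rose in lung by 1.21 ± 0.13 and 1.22 ± 0.13 log2 (SE, edgeR adjusted p = 7.3e-05 and 7.6e-05). In CD4 T cell libraries Bcl6, of germinal centre B cells and follicular helper T cells, was at 286 ± 37.2 CPM with propranolol and 50.9 ± 1.12 CPM untreated (SD, n = 4 each), and Tcf3, an E protein, fell by 0.83 log2 (edgeR adjusted p = 6.3e-06).

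Among 14 cytokines of switching and plasma cell survival, 6 rose and 1 fell of 11 tested in lung (median 0.77 log2), 3 rose and 1 fell of 12 in monocyte libraries (0.10; 0 and 1 with libraries summed), and 8 rose and 1 fell of 12 in CD4 T cell libraries (2.39). With resident scaling 2 rose and 4 fell in lung, and with T cell scaling 8 rose and 4 fell in CD4 T cell libraries. Tnfsf13b, the survival factor BAFF, rose by 0.95 ± 0.17 log2 in lung, and Cxcl12, a niche chemokine, rose by 0.77 ± 0.14 (SE, edgeR adjusted p = 0.000581 and 0.000645), of which neither was called with resident scaling, whereas Cxcl12 fell by 0.41 in monocyte libraries (adjusted p = 5.19e-05). Il6, a plasma cell growth factor, was at 0.167 ± 0.0546 CPM in propranolol lungs and 1.09 ± 0.577 CPM in untreated lungs (SD, n = 5 each, edgeR adjusted p = 0.000201). That propranolol mean lies below the filter on low counts, so Il6 was tested because of its level in the untreated libraries. In CD4 T cell libraries Il10, a switch factor for several classes, was at 41.7 ± 8.21 CPM with propranolol and 2.49 ± 0.246 CPM untreated, and Ifng, which in mice directs switching to IgG2c, at 18.6 ± 2.77 CPM with propranolol and 2.65 ± 0.515 CPM untreated (SD, n = 4 each; edgeR adjusted p = 7.38e-10 and 2.05e-08). Tgfb1, the switch factor for IgA and IgG2b in mice, rose by 1.89 ± 0.07 log2 and Cd40lg, the T cell signal to B cells, by 2.26 ± 0.08 in the same libraries (SE, edgeR adjusted p = 9.45e-10 and 1.02e-09).

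Genes that move or bind antibody formed the last list. Of 12 listed, 8 rose and 0 fell of 11 tested in lung (median 0.53 log2), 3 rose and 1 fell of 11 in monocyte libraries (0.05; 2 and 0 with libraries summed), and 6 rose and 1 fell of 12 in CD4 T cell libraries (0.75). With resident scaling 2 rose and 1 fell in lung, and with T cell scaling 4 rose and 4 fell in CD4 T cell libraries. Fcmr, the IgM receptor of lymphocytes, rose in all 3, by 1.74 ± 0.18, 1.39 ± 0.10 and 1.91 ± 0.12 log2 (SE, edgeR adjusted p = 6.92e-05, 3.78e-06 and 6.65e-08). Fcgr4, the mouse Fc receptor for IgG2 classes, rose by 0.90 ± 0.16 in lung, where it was not called with resident scaling, and 0.99 ± 0.08 in monocyte libraries (SE, edgeR adjusted p = 0.000522 and 8.17e-06). Pigr, the epithelial carrier of J chain-bearing IgA, was not called in lung, at 0.33 ± 0.22 log2 (SE, edgeR adjusted p = 0.204), and fell by 0.40 in monocyte libraries (adjusted p = 0.0015).

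How the members vary from library to library around their group means is described over all 26 libraries, which share the 6 groups, depth and, for the monocyte and CD4 T cell groups, close libraries. Jchain went with Igkc (Pearson r = 0.891), Igha (0.84), Ighg2b (0.798) and Mzb1 (0.777), and was unrelated to Ighg1 (-0.126), Sdc1 (0.082) and Prdm1 (-0.0937). Sdc1 and Prdm1 went with each other more than with any antibody gene (0.429). Among 12255 genes tested in all 3 comparisons, those whose deviations were most like Jchain were Rag1 (r = 0.882), Hbb-bs (0.86), Prps2 (0.858), Them6 (0.849) and Tbcel (0.845). Those most like Sdc1 were Prnp (0.928), Pqlc1 (0.91), Tmem176a, Tspo and Tagln2 (0.876 each), and those most like Prdm1 were Vsir (0.844), Slfn1 (0.838), Fgl2 (0.828), Myo1f (0.823) and Tgfbr2 (0.809). Spearman's rho for these 15 genes lay between 0.441 and 0.87. Rag1, the recombinase of developing lymphocytes, and Hbb-bs, a haemoglobin gene of red cells, are genes of other cells than plasma cells.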

How the data were processed

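Polyadenylated RNA was sequenced from whole lung (5 propranolol and 5 untreated libraries), from lung monocytes (4 and 4) and from lung CD4 T cells (4 and 4). The authors deposited whole-number read counts per gene for 55416 Ensembl genes, in 1 table for lung and monocytes and another for CD4 T cells. STAR 2.7.9, featureCounts, Subread 2.0.3 and the build GRCm39 are named in the submitters' processing notes, without their roles. No source used here states the strand setting or the treatment of multi-mapping reads. Groups follow the submitters' labels, in which some CD4 T cell titles spell the drug "propanol" while their treatment field gives propranolol. Gene symbols came from the name table supplied and matched 94% of identifiers. Promoter windows came from RefSeq on GRCm38.p6, a different build from that of the counts, so no gene coordinates were joined to them. Shared 50-base windows and transcript lengths were counted on the GENCODE vM21 transcripts.

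The deposited counts were tested within each kind of material with edgeR 4.0.16 (quasi-likelihood test, TMM scaling, genes kept by a minimum count of 10, Benjamini-Hochberg adjustment over all genes tested, threshold 0.05). Differences between materials were interaction terms in a separate fit of the same kind for each pair of materials, over the libraries of that pair alone. Ratios within a library were tested with two-sided exact permutation tests in scipy 1.17.1, adjusted over 9 tests. The smallest p these allow is 0.00794 for 5 against 5 and 0.0286 for 4 against 4. Correlations were computed on log2 CPM with a prior count of 2 after subtracting the mean of a library's own group, and are descriptions only. The alternatives were DESeq2 1.42.0 size factors and test, limma 3.58.1 (voom), library totals alone, no filter or a floor of 5 CPM on the mean, a block for replicate number, omission of each library, other denominators of the ratios, and, in lung, scaling on markers of resident cells and a melanocyte covariate. Summed monocyte libraries, CD4 T cell propranolol libraries 3 and 4 left out, T cell scaling and the lists under each of these and each scaling were added after seeing the data. The scripts, in R 4.3.3 and Python 3.11.15, were tested on simulated data.

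The members and all gene lists were chosen with earlier results of these data known. Beside the members and the genes that form the ratios, the text names up to 4 called genes of each list per comparison, taken by smallest p, and for Jchain, Sdc1 and Prdm1 the 5 genes with the highest correlation among those averaging at least 1 CPM. Tyrp1 and Cd4, and Xbp1 and Pigr outside the monocyte comparison, were named after their values were seen. 1 gene that this rule selects is not reported here. Total counts per library, from 17625672 to 48306925, set the precision, so genes with few counts such as Ighg3, Ighg1 and Mzb1 in untreated lung are the least precise.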

Additional observations from a re-analysis of the deposited data

Results flagged for a closer look

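In groups of 4 or 5 libraries, 5 of 84 sets of values had 1 library far from the rest of its group, where chance alone marks about 1 in 20. Ighg2c was at 1601 CPM in propranolol CD4 T cell library 2 and from 1287 to 1331 CPM in the other treated libraries. Mzb1 was at 0.522 CPM in untreated monocyte library 1 and from 0.928 to 0.986 CPM in the others. The percent of heavy-chain counts from switched genes was 56.2 in untreated CD4 T cell library 1 and from 53.7 to 53.9 in the others, and the Igha percent alone was 30.3 there, against 28.7 to 28.9 in the others. In untreated lung 3 the Igha percent was 39.5, and in the other untreated lungs it was from 53.6 to 58.8.

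The propranolol change differed between kinds of material in 22 of 30 tests on the members (edgeR interaction, adjusted p below 0.05), with 47.7% to 57.4% of all genes called in the 3 differences. Relative to lung, the log2 change in monocyte libraries was lower by the following differences: -2.61 for Ighg2b, -5.96 for Ighg2c, -3.19 for Ighg3, -1.73 for Igkc, -1.56 for Jchain and -1.25 for Prdm1. Relative to lung, the differences in CD4 T cell libraries were -2.72 for Igha, -2.37 for Ighg1, -2.16 for Ighg2b, -7.90 for Ighg2c, -5.59 for Ighg3, -2.45 for Igkc, -2.81 for Jchain, -1.70 for Mzb1 and -1.23 for Prdm1. Relative to monocyte libraries, those in CD4 T cell libraries were -2.07 for Igha, -2.18 for Ighg1, -1.86 for Ighg2c, -2.31 for Ighg3, -0.66 for Igkc, -1.18 for Jchain and -0.97 for Mzb1.

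In 4 comparisons of ratios, all propranolol libraries of a material lay above all its untreated libraries, and those of another material lay below. These differences were not tested. The change in the Igha percent of heavy-chain counts differed by -17.3 points between CD4 T cell and monocyte libraries. The change in the ratio of Ighg2b to Ighg2c counts was 5.70 higher in CD4 T cell libraries than in lung. In lung the groups only just separated, at 2.282 with propranolol against 2.317 untreated. The untreated lung ratios rest on 16 to 45 Ighg2c counts per library, and untreated lung 3, at 10, lifts their mean to 4.30 above a median of 3.36. The change in the log2 ratio of Jchain to Ms4a1 differed by -2.40 between CD4 T cell libraries and lung and by -1.92 between CD4 T cell and monocyte libraries.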

How the results depend on the processing

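In lung, the 7 antibody and J chain genes were called higher under every alternative that tested them; Ighg1 was below the floor of 5 CPM. Sdc1 in lung, 0.04 log2 with TMM, was -0.027 without a filter, -0.73 with resident scaling (then the 1 member called lower), -0.29 with the melanocyte covariate and from -0.053 to 0.17 when a library was left out. Calls over all lung genes were 1850 higher and 10796 lower with resident scaling and 1350 and 1682 with the covariate. In monocyte libraries 5 members were called higher with a floor of 5 CPM on a gene's mean, where fewer genes are tested, and 3 when libraries were summed in pairs, where calls over all genes were 409 higher and 968 lower. Ighg2b there was not called with limma-voom, at 1.19 (adjusted p = 0.0931).

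In CD4 T cell libraries, members called were 1 higher and 6 lower with library totals alone and 1 and 9 with T cell scaling, and 2 to 3 higher and 1 to 2 lower when a library was left out. Calls over all genes were 2886 higher and 8064 lower with totals and 1649 and 10644 with T cell scaling. Changes of sign there were Ighg1 at -0.34 with totals, -0.00024 with limma-voom, -0.027 at 5 CPM, -0.70 with T cell scaling and -0.18 to 0.22 when a library was left out; Ighg3 at -0.36 with totals, -0.046 at 5 CPM, -0.71 with T cell scaling and -0.074 to 0.10 when a library was left out; and Jchain at -0.30, -0.63 with T cell scaling and -0.056 to 0.23. Ighm was at -0.13 with totals and -0.48 with T cell scaling, and Igkc at -0.29 with T cell scaling. Sdc1 was at 0.012 without a filter, 0.071 without propranolol libraries 3 and 4, and from -0.20 to 0.11 when a library was left out.

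Of the differences between materials, with lung on resident markers those between monocytes and lung were 0.28 for Igha, 0.79 for Ighg1, 0.14 for Mzb1 and 0.63 for Sdc1, the 1 member then called higher, with 9913 genes called higher and 1972 lower. That between CD4 T cells and lung was 0.69 for Sdc1, again the 1 member called higher, with 8352 genes higher and 3040 lower. With monocyte libraries summed, the difference from lung was 0.15 for Ighg1 and 3854 genes were called lower. Without CD4 T cell propranolol libraries 3 and 4 the difference from lung was 0.12 for Sdc1.

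The Igha percent, with IgG and IgA genes alone as the whole, differed by -21.2 points in lung (exact permutation test, adjusted p = 0.0238) and by 4.15 in monocyte libraries (adjusted p = 0.225). The Igkc percent against Iglc2 alone differed by -0.418 points in monocyte libraries, and the log2 ratio of Jchain to Cd79b by 0.14. With a library left out of 4 against 4 the smallest exact p is 0.0571, so these differences lost their calls by construction; they ranged from 8.32 to 11.6 for the Igha percent in monocyte and from -8.66 to -6.22 in CD4 T cell libraries, from 3.04 to 3.47 for the Igkc percent in CD4 T cell libraries, and from 0.40 to 0.68 in monocyte and -1.44 to -1.28 in CD4 T cell libraries for the Jchain ratio.

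The replicate numbers did not pair the libraries: deviations of same-numbered libraries correlated from -0.05 to 0.37 in lung, -0.32 to -0.13 in monocyte and -0.02 to 0.03 in CD4 T cell libraries. With the replicate number as a block, 1454 genes were called higher in monocyte libraries, Ighg2b there was at 1.26 (adjusted p = 0.152) and Mzb1 at 0.82 (adjusted p = 0.0692), and Ighg1 in CD4 T cell libraries was at -0.012. Under that pairing the ratios had the same differences and exact sign-flip p that cannot go lower: 9.93, -7.41 and 3.27 points, 0.55 and -1.37 log2 in the 4 against 4 designs (p = 0.125), and 3.67 points and 1.02 log2 in lung (p = 0.0625).

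For single genes, 666 of these values kept direction and side of the threshold, 28 lost a call, 10 gained one and 37 changed sign. Apart from the scaling and construction named, the cause was not tested. Counts of 2 to 52 per untreated library limit Ighg1, Ighg3 and Mzb1 in lung and monocyte libraries.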
